A study of Mus musculus with 6 samples.

Results

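Enzymes that oxidise, reduce or conjugate small molecules were compared in BC44, HC11 and C57MG, 3 established lines of mouse mammary epithelium. The genes were taken by name alone: aldehyde dehydrogenases (Aldh), alcohol dehydrogenases (Adh), cytochromes P450 (Cyp, without the sterol synthesis gene Cyp51), aldo-keto reductases (Akr), carbonyl reductases (Cbr), UDP-glycosyltransferases (Ugt) and sulfotransferases (Sult). The name rule took 45 of the 11417 genes listed. Classed by family name alone, 29 were oxidising enzymes (13 Aldh, 2 Adh and 14 Cyp). Another 13 were reducing enzymes (9 Akr and 4 Cbr) and 3 were conjugating enzymes (2 Ugt and 1 Sult). A family name does not fix the reaction of every member.

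Cytochromes P450 insert oxygen into steroids, retinoids, fatty acids and foreign compounds, with electrons passed from NADPH. Alcohol and aldehyde dehydrogenases carry the oxidation on to aldehydes and acids, while aldo-keto and carbonyl reductases run the other way and turn carbonyl groups into alcohols. Glycosyltransferases and sulfotransferases then attach a sugar acid or a sulfate, which makes the product easier to export. In mammary epithelium these families are known for handling progesterone, retinoic acid, lipid aldehydes and dietary or environmental compounds.

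Poly(A) RNA was sequenced from 2 libraries per line, 6 in all, and no cell was treated. BC44 and HC11 cells both grew in RPMI with 5 µg/ml insulin, and HC11 cells also received 10 ng/ml epidermal growth factor. C57MG cells grew in DMEM GlutaMAX with 10 µg/ml insulin, and all 3 media held 10% serum. All were on plastic and were collected 2 days after seeding in 10 cm dishes. Each line had its own medium, so line and medium cannot be told apart, and the labels do not say that replicates came from separate cultures. The p-values therefore measure the spread between these libraries, which may be technical. In bulk RNA, fewer cells of a type and less RNA per cell cannot be told apart either.

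Levels are given in RPKM, meaning reads per kilobase of gene, scaled to 1000000 reads, so they can be compared between genes as well as between lines. Estimated depth was 14110000 to 18360000 reads per library, at which 3 reads on a 2 kb gene correspond to 0.0817 to 0.106 RPKM. The labels call all 3 lines mammary epithelial. The 11 epithelial markers examined summed to 5075 and 5279 RPKM in BC44 and to 2438 and 3335 RPKM in HC11, against 65.8 and 139.2 RPKM in C57MG. In C57MG replicates 1 and 2, E-cadherin (Cdh1) was at 1.09 and 0 RPKM and Epcam at 0.949 and 0 RPKM, at or near 0. Keratin 18 (Krt18) was at 0 and 0.046 RPKM there. It was also listed at 0 in both BC44 libraries, so it does not set C57MG apart from BC44. Not all epithelial markers were near 0 in C57MG. Keratin 14 (Krt14) was at 118 and 64.8 RPKM in replicates 1 and 2, most of the epithelial sum. These values were 4.33% and 2.38% of its BC44 mean. Keratin 5 (Krt5) was at 16.04 and 0.148 RPKM, but this was only 0.836% and 0.00771% of its high BC44 mean. The 11 mesenchymal markers summed to 4082 and 4399 RPKM in C57MG and to between 260.2 and 328.3 RPKM in the other lines.

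The 2 C57MG libraries differed in their trace of epithelial transcripts. For the 8 epithelial markers with a BC44 mean of at least 20 RPKM, C57MG replicate 1 held 0.803% to 4.33% of the BC44 mean (median 0.862%), and replicate 2 held 0% to 2.38% (median 0.00833%). Low values of BC44 or HC11 genes in C57MG replicate 1 are read beside that level. In the opposite direction, the 10 mesenchymal markers with a C57MG mean of at least 20 RPKM stood at a median of 1.17% and 2.55% of the C57MG mean in BC44 replicates 1 and 2, and at 0.519% and 0.615% in HC11. Markers of adipocytes, immune and endothelial cells were few or low: 1 of 5, 1 of 5 and 2 of 4 were listed, and no hepatocyte marker of 4 was.

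**Figure D1:**
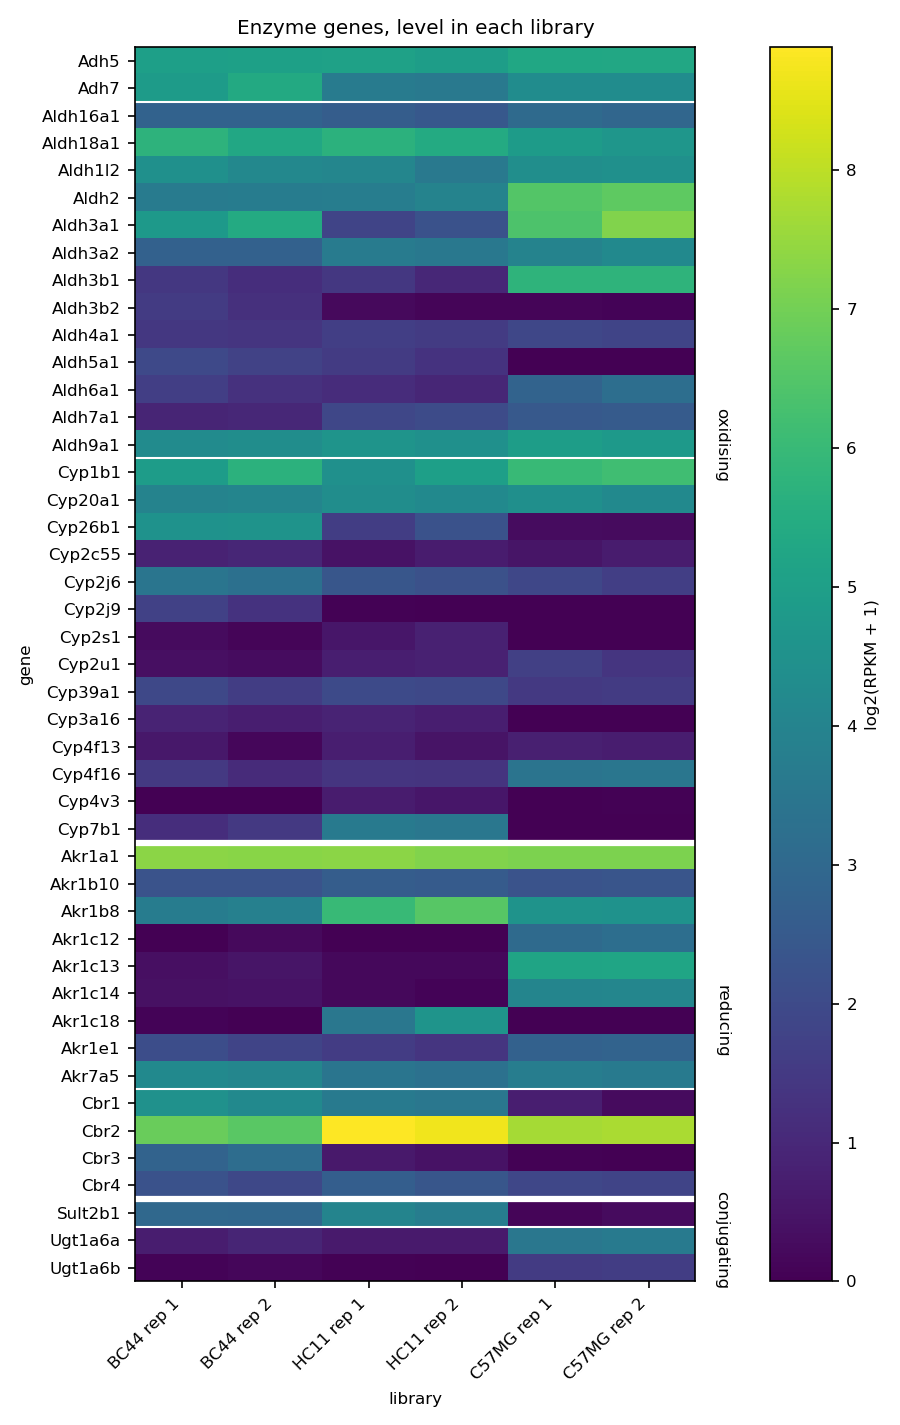
Level of the 45 enzyme genes in each of the 6 libraries, as log2(RPKM + 1), ordered by class (thick white lines) and family (thin white lines). Cbr2 and Akr1a1 are bright in every library, and the Akr1c, Aldh3 and Ugt1a6 rows change sharply between lines.

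The 3 lines carried different balances of oxidising and reducing enzymes. Summed over all 45 genes, the level was 653 ± 2.69 RPKM in BC44, 979 ± 33.7 RPKM in HC11 and 1009 ± 66 RPKM in C57MG (mean ± SD, n = 2 for each line). Oxidising enzymes summed to 298.9 and 330.2 RPKM in BC44, 245.2 and 232.6 RPKM in HC11, and 499.8 and 579.2 RPKM in C57MG. Both C57MG libraries were above all others, and both HC11 libraries were below all others.

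Reducing enzymes had another order. Their sum was 344.6 and 317.0 RPKM in BC44, 742.3 and 709.6 RPKM in HC11, and 450.3 and 462.8 RPKM in C57MG. They made up 74.0% and 74.3% of the summed level in HC11, against 52.9% and 48.4% in BC44 and 46.8% and 43.8% in C57MG. A single gene, Cbr2, carried most of the HC11 excess: without it the reducing sum was 226 ± 6.73 RPKM in BC44, 283 ± 17.9 RPKM in HC11 and 247 ± 1.02 RPKM in C57MG (mean ± SD, n = 2). Both HC11 libraries were still above the other 4.

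Conjugating enzymes were a small part of the total in every library, 1.19% to 1.56%. Their sum was 7.83 ± 0.102 RPKM in BC44, 14.4 ± 1.64 RPKM in HC11 and 13.1 ± 0.991 RPKM in C57MG (mean ± SD, n = 2), but different genes made it up. The sulfotransferase Sult2b1 gave 15.0 and 12.7 RPKM in HC11 and 0.088 and 0.206 RPKM in C57MG, while the 2 glycosyltransferases gave 12.3 and 13.6 RPKM in C57MG and 0.599 and 0.564 RPKM in HC11. No test was made on these sums, since an exact permutation of 2 libraries against 2 cannot give a p below 0.33.

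**Figure D2:**
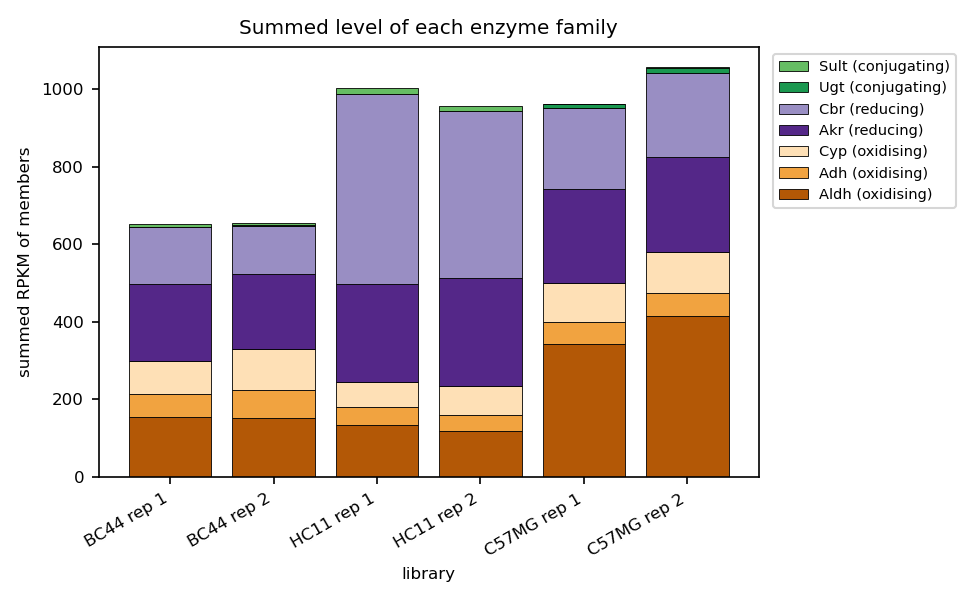
Summed RPKM of the enzyme families in each library, stacked from aldehyde dehydrogenases at the bottom to Sult2b1 at the top. The carbonyl reductase segment is tallest in the HC11 libraries (429.4 and 489.7 RPKM) and the aldehyde dehydrogenase segment in the C57MG libraries (341.9 and 415.0 RPKM).

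Gene by gene, differences were tested with limma on log2(RPKM + 1) in the 10759 genes that had at least 1 RPKM in at least 2 libraries, and a gene was called at an adjusted p under 0.05. A log2 difference below is the difference of the mean log2(RPKM + 1) of the first line minus the second. It understates the ratio of genes at low levels. Of the 45 members, 40 passed the filter on low values. The 5 that did not were all cytochromes P450 (Cyp2c55, Cyp2s1, Cyp3a16, Cyp4f13 and Cyp4v3), with means under 1 RPKM in every line.

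Between BC44 and HC11, 21 of 40 tested members were called, or 52.5%, beside 47.7% of all genes tested. Of these, 11 were higher in BC44 and 10 in HC11, where 24.7% and 23.0% of all genes were called. With a difference of at least 2-fold as well, 12 members (30%) were called, beside 12.5% of all genes. In these counts 2-fold means a log2 difference of at least 1 in size, not a ratio of means. The overall share was near its background. The median size of the log2 difference was 0.44 over the members and 0.30 over all genes.

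Between BC44 and C57MG, 33 of 40 members (82.5%) were called, beside 71.7% of all genes. Of these, 12 were higher in BC44 and 21 in C57MG, where 37.5% and 34.1% of all genes were called. Those called with at least 2-fold numbered 22 (55.0%), beside 29.8% of all genes, and the median size of the log2 difference was 1.31 against 0.57. Between HC11 and C57MG, 35 of 40 members (87.5%) were called, beside 70.5% of all genes. Here 14 were higher in HC11 and 21 in C57MG, where 37.4% and 33.2% of all genes were called. At least 2-fold differences were called for 20 members (50%), beside 27.0% of all genes, and the median size was 0.94 against 0.53. The comparisons share lines, so they are not independent of each other. The median log2 difference over the members was 0.09, -0.30 and -0.30 in the 3 comparisons in that order, beside 0.02, 0.04 and 0.03 over all genes.

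Of the 24 oxidising enzymes tested, 21 (87.5%) were called for BC44 against C57MG, beside 71.7% of all genes, with 13 toward C57MG and 8 toward BC44. For HC11 against C57MG 20 (83.3%) were called, beside 70.5% of all genes, with 14 toward C57MG and 6 toward HC11. For BC44 against HC11 11 (45.8%) were called, beside 47.7% of all genes, which is near the background, and 7 of them were toward BC44. Of the 13 reducing enzymes, 9 were called for BC44 against HC11 (4 toward BC44), 9 for BC44 against C57MG (3 toward BC44) and 12 for HC11 against C57MG (7 toward HC11). Those shares were 69.2%, 69.2% and 92.3%, beside 47.7%, 71.7% and 70.5% of all genes, so the second was near the background. All 3 conjugating enzymes were called in each comparison with C57MG, and 1 between BC44 and HC11.

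By line mean, 22 of the 45 genes (48.9%) were highest in C57MG, 12 in HC11 and 11 in BC44. Over the whole list of genes, 38.3% were highest in C57MG. Of the 13 aldehyde dehydrogenases, 10 were highest in C57MG. For 12 tested members each of the 3 log2 differences was under 1 in size, among them Adh5, Akr1a1, Akr7a5, Aldh9a1 and Cyp20a1. The matching share of all genes was not counted, so this number is a description only.

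**Figure D3:**
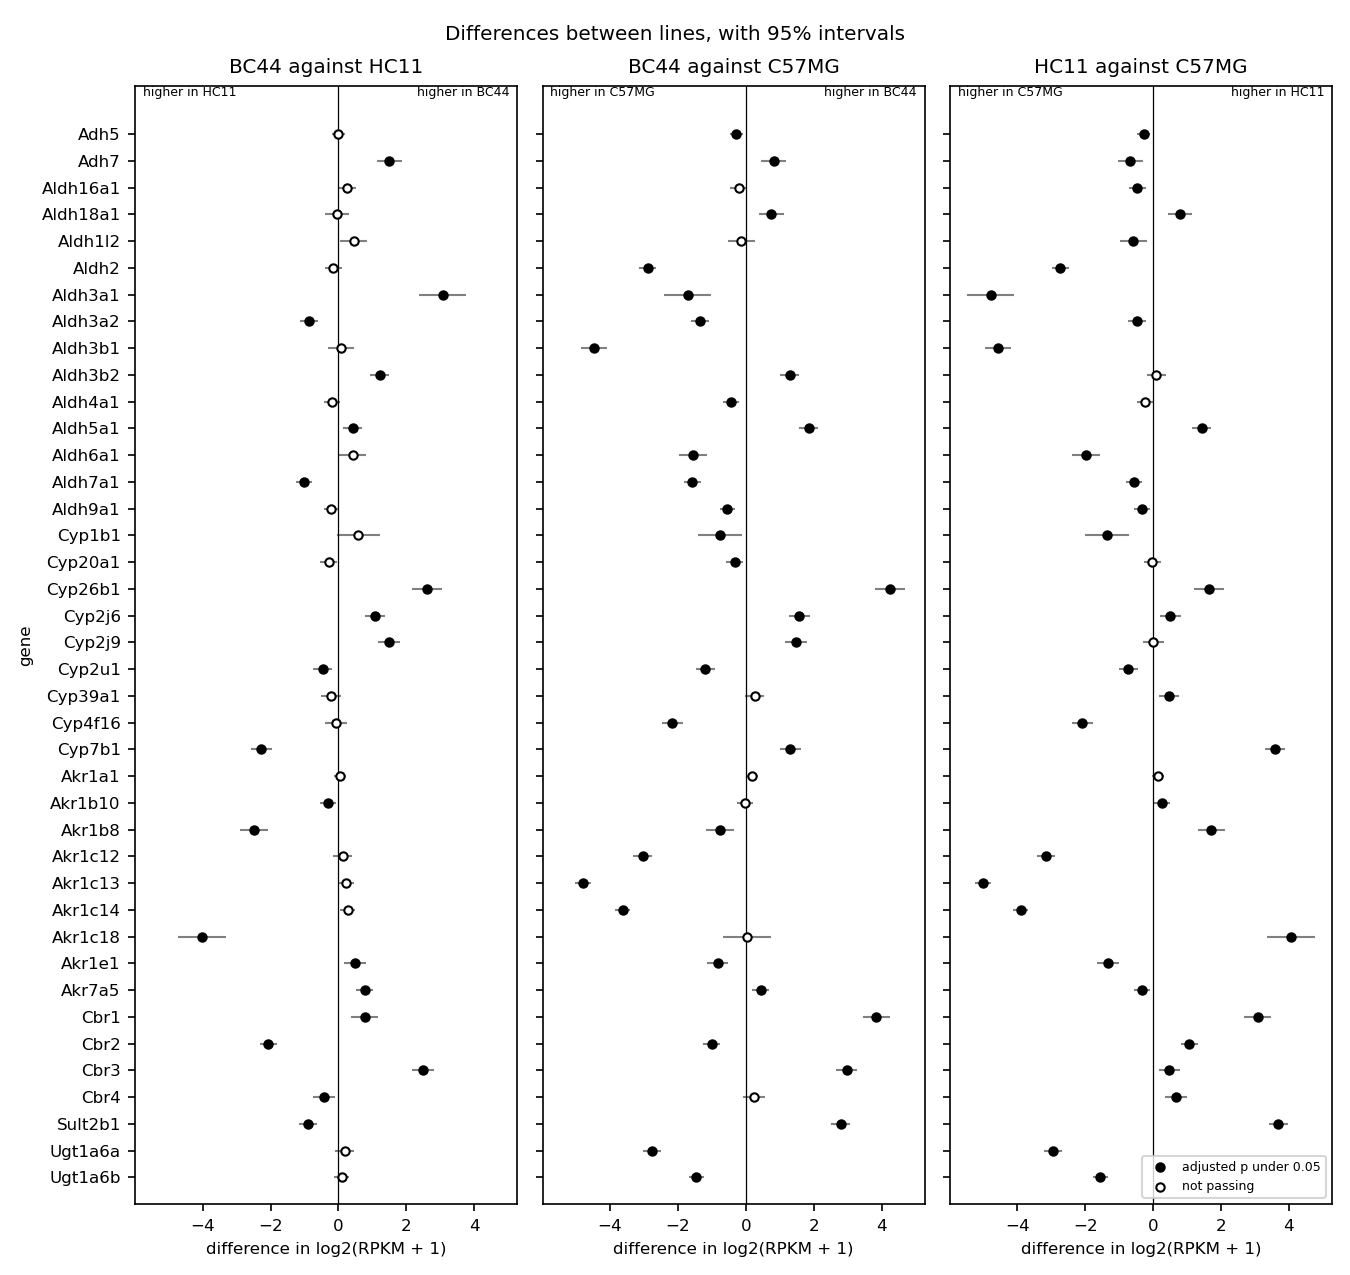
Difference in log2(RPKM + 1) between lines for the 40 tested members, with 95% intervals from limma. Filled points passed at an adjusted p under 0.05. Points to the right were higher in the first line named above the panel, and the widest spread is in the panels with C57MG.

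Aldehyde dehydrogenases of the third family oxidise medium and long chain lipid aldehydes, and they showed the widest range of the family. Aldh3a1, which is abundant in cornea and inducible elsewhere, was at 26.4 and 41.8 RPKM in BC44, 2.58 and 3.67 RPKM in HC11, and 84.7 and 146 RPKM in C57MG. No library of one line overlapped another line. BC44 exceeded HC11 by a log2 difference of 3.07 (SE 0.29, limma adjusted p = 0.000149), a 10.9-fold ratio of means. C57MG was 3.39-fold above BC44 (log2 difference -1.71, limma adjusted p = 0.00120) and 37.0-fold above HC11 (log2 difference -4.78, limma adjusted p = 5.37e-06).

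Its chromosome 11 neighbour Aldh3a2, the fatty aldehyde dehydrogenase, varied less, with means of 5.76 RPKM in BC44, 11.4 RPKM in HC11 and 16.1 RPKM in C57MG. The paired genes on chromosome 19 also had different patterns. Aldh3b1 was at 1.71 and 1.25 RPKM in BC44, 1.72 and 1.005 RPKM in HC11, and 54.1 RPKM in both C57MG libraries. BC44 and HC11 overlapped, with a log2 difference of 0.08 (95% interval -0.30 to 0.47), and C57MG was above both by log2 differences of -4.48 and -4.56 (limma adjusted p = 4.15e-07 and 4.69e-07). Aldh3b2 was highest in BC44, at a mean of 1.64 RPKM, against 0.137 in HC11 and 0.0695 in C57MG. The transcripts of Aldh3b1 and Aldh3b2 shared 6.51% and 5.83% of their 50-base windows, so part of their reads could have been split between them.

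Aldh2, the mitochondrial enzyme that clears acetaldehyde, was the other abundant member that separated C57MG. Its level was 11.9 and 12.3 RPKM in BC44, 12.6 and 14.7 RPKM in HC11, and 89.5 and 102.8 RPKM in C57MG. C57MG was 7.98-fold above BC44 and 7.06-fold above HC11, with log2 differences of -2.89 (SE 0.11, limma adjusted p = 4.15e-07) and -2.73 (limma adjusted p = 6.36e-07). BC44 and HC11 differed by -0.16 (95% interval -0.41 to 0.09, limma adjusted p = 0.257). Aldh7a1, which acts in lysine breakdown, had means of 0.935 RPKM in BC44, 2.90 RPKM in HC11 and 4.74 RPKM in C57MG. Aldh9a1, which makes the carnitine precursor, ranged from 19.0 RPKM in BC44 to 28.0 in C57MG, and Aldh16a1 from 4.82 in HC11 to 7.01 in C57MG.

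The aldehyde dehydrogenases of amino acid and folate metabolism did not share one order. Aldh18a1, which makes the proline precursor from glutamate, had means of 45.8 RPKM in BC44, 47.1 RPKM in HC11 and 26.6 RPKM in C57MG, its lowest line. Its step is a reduction, although its family name put it among the oxidising enzymes and in their sums. Aldh5a1, the succinate semialdehyde dehydrogenase of GABA breakdown, averaged 2.63 RPKM in BC44 and 1.72 in HC11 and was listed at 0 in both C57MG libraries. Aldh6a1, of valine breakdown, averaged 1.78, 1.07 and 7.16 RPKM in BC44, HC11 and C57MG. The mitochondrial folate enzyme Aldh1l2 averaged 18.7, 13.5 and 20.5 RPKM, and Aldh4a1, of proline breakdown, 1.66, 2.06 and 2.62 RPKM. Annotated exons of Aldh6a1, Aldh1l2 and Aldh5a1 overlap those of a gene on the opposite strand over 18.6%, 14.1% and 14.1% of their length. Whether the counting used the strand is not stated, so these levels are uncertain. The level of Aldh4a1 is uncertain as well, since 32.5% of its length overlaps a gene on the same strand, which use of the strand would not separate.

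The retinaldehyde dehydrogenases of the first family, which make retinoic acid, were not among the genes that the name rule took, so no level is given for them. Both alcohol dehydrogenases lie on chromosome 3. Adh7 oxidises retinol and other alcohols in epithelia. It was at 28.6 and 40.9 RPKM in BC44, 12.0 and 11.0 RPKM in HC11, and 18.9 and 19.0 RPKM in C57MG, with no overlap between lines. BC44 was 3.01-fold above HC11 (log2 difference 1.49, SE 0.15, limma adjusted p = 0.000225) and 1.83-fold above C57MG (log2 difference 0.82, limma adjusted p = 0.00206).

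Adh5, the widely expressed formaldehyde and nitrosoglutathione dehydrogenase, was far steadier. It was at 31.2 and 31.9 RPKM in BC44, 33.2 and 30.1 RPKM in HC11, and 38.1 and 39.1 RPKM in C57MG. BC44 and HC11 overlapped, and C57MG was 1.22-fold above each, with a log2 difference of -0.28 in both comparisons (limma adjusted p = 0.0144 and 0.0158). These small differences no longer passed when single libraries were left out, with an adjusted p of up to 0.0841 against BC44 and 0.0896 against HC11, both without C57MG replicate 2.

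Cyp1b1 and Cyp26b1 were the cytochrome P450 genes that averaged 20 RPKM or more in some line. Cyp1b1, which oxidises oestradiol and polycyclic hydrocarbons, is a classic target of the aryl hydrocarbon receptor. Its promoter, from RefSeq on GRCm38.p6 at chr17:79715012-79715311 and read along the gene's minus strand, is shown because the receptor and its target genes are compared further on. The capitals mark the xenobiotic response core GCGTG, here as its reverse complement.
Cyp1b1: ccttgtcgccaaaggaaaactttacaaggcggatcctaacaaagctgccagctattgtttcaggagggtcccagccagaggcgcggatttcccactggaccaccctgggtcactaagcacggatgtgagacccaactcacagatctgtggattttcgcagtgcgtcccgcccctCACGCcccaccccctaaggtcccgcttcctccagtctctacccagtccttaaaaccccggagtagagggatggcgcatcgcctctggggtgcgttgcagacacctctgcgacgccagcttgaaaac

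Cyp1b1 was the most abundant P450 gene in all 6 libraries. It was at 29.1 and 52.0 RPKM in BC44, 20.9 and 31.2 RPKM in HC11, and 62.6 and 71.2 RPKM in C57MG. BC44 and HC11 overlapped (log2 difference 0.59, 95% interval -0.05 to 1.23, limma adjusted p = 0.118). C57MG was above HC11 by 2.57-fold (log2 difference -1.35, SE 0.27, limma adjusted p = 0.00299). Its 1.65-fold excess over BC44 (log2 difference -0.76, limma adjusted p = 0.0365) rested on single libraries. That log2 difference was -0.36 without BC44 replicate 1 (adjusted p = 0.229), -0.86 without C57MG replicate 1 (adjusted p = 0.0760) and -0.67 without C57MG replicate 2 (adjusted p = 0.145). The BC44 and HC11 difference was called without BC44 replicate 1 (0.99, adjusted p = 0.0243) and with the replicate number as a block (0.59, adjusted p = 0.00985).

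Cyp26b1, which degrades retinoic acid, was highest in BC44 and lowest in C57MG. It was at 22.03 and 22.55 RPKM in BC44, 2.08 and 3.70 RPKM in HC11, and 0.240 and 0.187 RPKM in C57MG, with no overlap between lines. BC44 was 7.72-fold above HC11 (log2 difference 2.61, SE 0.19, limma adjusted p = 3.61e-05) and 104-fold above C57MG (log2 difference 4.26, limma adjusted p = 8.58e-07). HC11 was 13.5-fold above C57MG (log2 difference 1.65, limma adjusted p = 0.000146). The C57MG values were 1.08% and 0.839% of the BC44 mean, close to the 0.862% of the epithelial markers in C57MG replicate 1 and above their 0.00833% in replicate 2. The part of the epithelial trace in these low values was not tested.

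Cyp7b1 hydroxylates oxysterols and some steroids. Its level was 1.23 and 1.77 RPKM in BC44 and 11.6 and 10.5 RPKM in HC11, and it was listed at 0 in both C57MG libraries. HC11 was 7.36-fold above BC44 (log2 difference -2.28, SE 0.13, limma adjusted p = 1.22e-05) and differed from C57MG by 3.59 on the log2 scale (limma adjusted p = 4.59e-07). Cyp4f16, of a family that hydroxylates fatty acids and eicosanoids, was a C57MG gene. It was at 1.77 and 1.16 RPKM in BC44, 1.59 and 1.55 RPKM in HC11, and 9.61 and 10.2 RPKM in C57MG, which was 6.77-fold and 6.32-fold above the other lines (log2 differences -2.16 and -2.09, limma adjusted p = 5.30e-06 and 7.19e-06).

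The remaining tested P450 genes were lower or steadier. Cyp20a1, an orphan P450, was at 14.6 and 15.5 RPKM in BC44, 19.6 and 17.5 RPKM in HC11, and 20.5 and 17.5 RPKM in C57MG. Its 1.26-fold difference between BC44 and C57MG (log2 difference -0.32, limma adjusted p = 0.0289) no longer passed without BC44 replicate 1 (adjusted p = 0.125), BC44 replicate 2 (0.0670) or C57MG replicate 1 (-0.21, adjusted p = 0.207). Cyp2j6 and Cyp2j9, adjacent on chromosome 4 and of a family that oxidises arachidonic acid, were both highest in BC44, with means of 9.32 and 1.86 RPKM. Cyp2j6 averaged 3.91 RPKM in HC11 and 2.45 in C57MG, and Cyp2j9 0.0160 and 0.00950 RPKM.

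Cyp2u1, a fatty acid hydroxylase, averaged 0.257 RPKM in BC44, 0.736 RPKM in HC11 and 1.90 RPKM in C57MG. Cyp39a1, an oxysterol hydroxylase, averaged 2.42, 2.93 and 1.84 RPKM in the same order. The 5 untested genes had their largest line means at 0.854 RPKM (Cyp2c55, in BC44), 0.616 (Cyp2s1, in HC11), 0.763 (Cyp3a16, in HC11), 0.679 (Cyp4f13, in C57MG) and 0.529 (Cyp4v3, in HC11). Cyp3a16 was listed at 0 in both C57MG libraries and Cyp4v3 in both BC44 libraries.

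Aldo-keto reductases of the Akr1c group reduce keto groups of steroids and prostaglandins. Their genes lie together on chromosome 13, in the order Akr1c14, Akr1c18, Akr1c13 and Akr1c12, and Akr1c18 differed in its line pattern from the genes on either side. The promoters of the 4 genes are shown from RefSeq (GRCm38.p6, 250 bases before to 50 after the start, read along each gene's own strand). For Akr1c12 and Akr1c13 the capitals mark bases unlike the other of the pair, and for Akr1c14 they mark the core GCGTG.
Akr1c14: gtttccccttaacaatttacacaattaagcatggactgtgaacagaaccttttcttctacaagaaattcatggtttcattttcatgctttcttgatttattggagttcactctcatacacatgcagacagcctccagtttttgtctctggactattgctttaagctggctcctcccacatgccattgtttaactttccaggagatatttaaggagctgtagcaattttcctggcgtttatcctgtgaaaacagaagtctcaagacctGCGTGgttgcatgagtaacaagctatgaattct
Akr1c18: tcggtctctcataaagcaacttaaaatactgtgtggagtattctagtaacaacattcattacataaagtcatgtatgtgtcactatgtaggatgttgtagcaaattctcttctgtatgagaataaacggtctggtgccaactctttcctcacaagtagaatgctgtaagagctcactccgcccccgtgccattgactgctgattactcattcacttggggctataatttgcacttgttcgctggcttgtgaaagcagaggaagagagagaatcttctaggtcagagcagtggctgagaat
Akr1c13: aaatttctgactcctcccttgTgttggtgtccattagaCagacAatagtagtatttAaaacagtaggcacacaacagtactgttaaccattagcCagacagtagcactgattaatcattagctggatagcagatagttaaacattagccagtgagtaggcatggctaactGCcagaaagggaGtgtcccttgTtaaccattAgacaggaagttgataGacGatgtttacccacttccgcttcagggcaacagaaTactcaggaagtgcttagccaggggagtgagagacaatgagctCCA
Akr1c12: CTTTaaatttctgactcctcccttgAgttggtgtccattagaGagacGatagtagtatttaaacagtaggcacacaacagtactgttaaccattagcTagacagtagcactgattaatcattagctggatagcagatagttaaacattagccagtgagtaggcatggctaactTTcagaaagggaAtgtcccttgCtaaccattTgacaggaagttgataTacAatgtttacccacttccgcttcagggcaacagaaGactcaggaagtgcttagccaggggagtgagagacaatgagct

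These windows are at chr13:4059341-4059640 (Akr1c14, plus strand), chr13:4150597-4150896 (Akr1c18, minus strand), chr13:4190937-4191236 (Akr1c13, plus strand) and chr13:4279350-4279649 (Akr1c12, minus strand). Akr1c12 and Akr1c13 were identical in 284 of 304 aligned columns (93.4%), while every other pair of the 4 was identical in 49.9% to 55.6%.

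Akr1c18, the 20-alpha-hydroxysteroid dehydrogenase that inactivates progesterone, was an HC11 gene. It was at 0.057 and 0 RPKM in BC44, 10.4 and 23.3 RPKM in HC11, and listed at 0 in both C57MG libraries. The HC11 libraries were 16.8 ± 9.13 RPKM (mean ± SD, n = 2) and so differed by more than 2-fold from each other. HC11 was above BC44 by a log2 difference of -4.02 (SE 0.30, limma adjusted p = 4.49e-05) and above C57MG by 4.06 (limma adjusted p = 1.49e-05), and no ratio is given against lines at or near 0.

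The other 3 genes of the group were high in C57MG. Akr1c13 was at 0.293 and 0.409 RPKM in BC44, 0.154 and 0.15 RPKM in HC11, and 35.9 and 36.6 RPKM in C57MG. Akr1c14, a 3-alpha-hydroxysteroid dehydrogenase, was at 0.322 and 0.347 RPKM in BC44, 0.145 and 0.070 RPKM in HC11, and 15.4 and 15.7 RPKM in C57MG. Akr1c12 was at 0 and 0.181 RPKM in BC44, listed at 0 in both HC11 libraries, and at 7.48 and 8.36 RPKM in C57MG. For each of the 3, every C57MG library was far above the other 4.

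The log2 differences between BC44 and C57MG were -4.79 for Akr1c13, -3.63 for Akr1c14 and -3.04 for Akr1c12 (limma adjusted p = 2.71e-07, 2.71e-07 and 4.70e-07). Between HC11 and C57MG they were -5.02, -3.90 and -3.16 (limma adjusted p = 1.43e-07, 1.90e-07 and 5.00e-07). The BC44 levels of Akr1c13, 0.808% and 1.13% of the C57MG mean, and of Akr1c14, 2.07% and 2.23%, were of the size of the mesenchymal marker medians in those libraries, 1.17% and 2.55%. The part of that trace in these values was not tested. The transcripts of Akr1c12 and Akr1c13 shared 28.6% of their 50-base windows, so reads could have been split between them, and their separate levels are uncertain.

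Akr1e1, further along chromosome 13 and a reductase of a sugar derivative, averaged 2.93 RPKM in BC44, 1.79 RPKM in HC11 and 5.94 RPKM in C57MG. Akr1b8, a reductase of lipid aldehydes, was the other aldo-keto reductase with a wide range. It was at 12.2 and 13.5 RPKM in BC44, 62.5 and 93.6 RPKM in HC11, and 22.9 and 22 RPKM in C57MG. HC11 was 6.07-fold above BC44 (log2 difference -2.49, SE 0.17, limma adjusted p = 3.05e-05) and 3.48-fold above C57MG (log2 difference 1.72, limma adjusted p = 7.12e-05), and C57MG was 1.75-fold above BC44 (log2 difference -0.76, limma adjusted p = 0.00499). Its neighbour Akr1b10 on chromosome 6 averaged 3.85, 4.96 and 3.97 RPKM in BC44, HC11 and C57MG, with 2.34% of its 50-base windows shared with Akr1b8.

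Akr1a1, the general aldehyde reductase that also acts in vitamin C synthesis, was abundant in every library. It was at 161.9 and 155.9 RPKM in BC44, 162.4 and 147.9 RPKM in HC11, and 138.7 and 140.3 RPKM in C57MG. The log2 differences were 0.04 between BC44 and HC11 (95% interval -0.14 to 0.21), 0.19 for BC44 against C57MG (0.01 to 0.37) and 0.15 for HC11 against C57MG (-0.03 to 0.33). None passed (limma adjusted p = 0.728, 0.0584 and 0.112), although the BC44 and C57MG difference did without either HC11 replicate (adjusted p of up to 0.0304), and the HC11 and C57MG difference did without HC11 replicate 2 (adjusted p = 0.0395). Akr7a5, a reductase of aflatoxin aldehyde and succinate semialdehyde, averaged 16.6 RPKM in BC44, 9.37 RPKM in HC11 and 12.0 RPKM in C57MG.

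**Figure D4:**
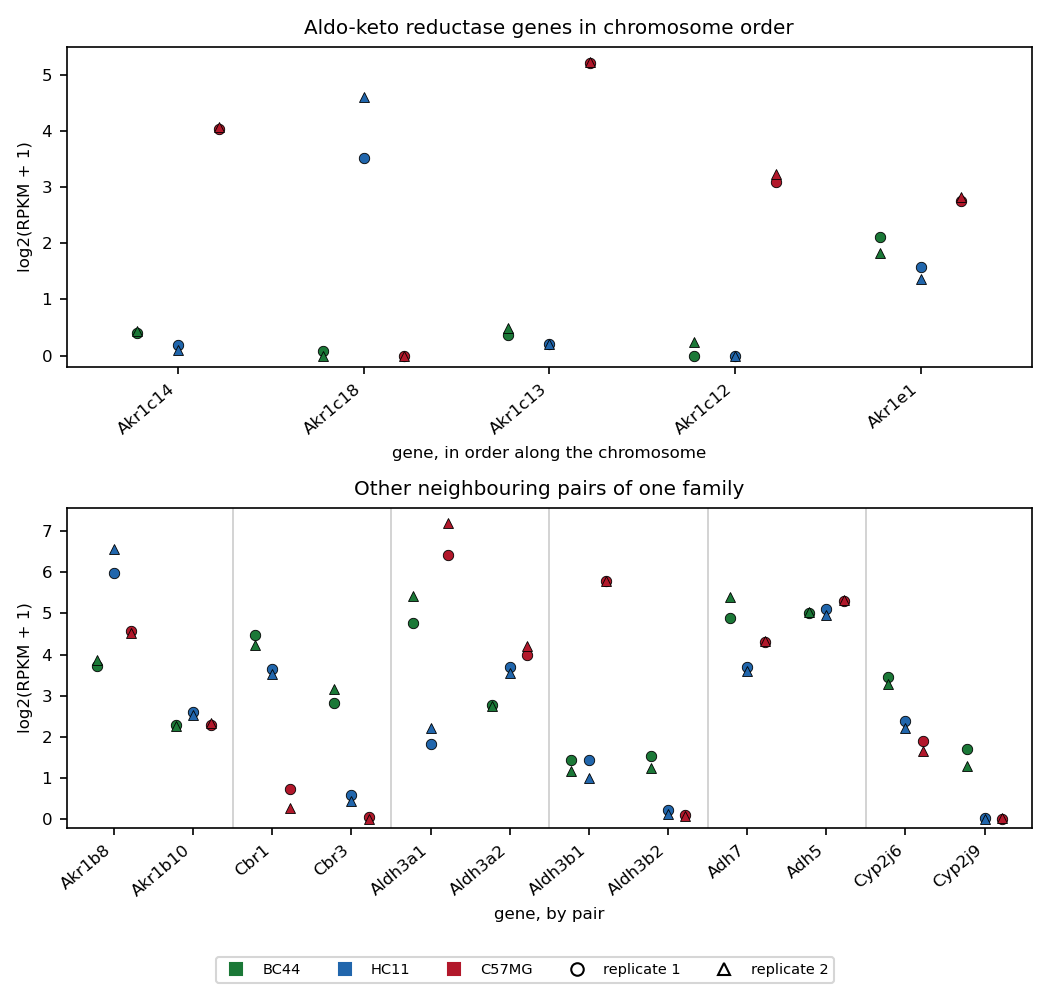
Level, as log2(RPKM + 1), of aldo-keto reductase genes in their order along chromosome 13 (upper panel) and of other neighbouring pairs of one family (lower panel), 1 point per library. Akr1c18 is high in HC11 between Akr1c14 and Akr1c13, which are high in C57MG, and Cbr1 and Cbr3 are both highest in BC44.

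Carbonyl reductases reduce quinones, prostaglandins and drug carbonyls with NADPH. Cbr2, a carbonyl reductase best known from lung, was the most abundant of the 45 genes in HC11 and C57MG. Its level was 114.0 and 95.9 RPKM in BC44, 472 and 414 RPKM in HC11, and 204 and 215 RPKM in C57MG, with no overlap between lines. HC11 was 4.22-fold above BC44 (log2 difference -2.07, SE 0.11, limma adjusted p = 8.02e-06) and 2.11-fold above C57MG (log2 difference 1.07, limma adjusted p = 7.20e-05). C57MG was 2.00-fold above BC44 (log2 difference -1.0, limma adjusted p = 9.40e-05).

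Cbr1 and Cbr3, a pair on chromosome 16, were highest in BC44 and low in C57MG. Cbr1 was at 21.3 and 17.8 RPKM in BC44, 11.6 and 10.5 RPKM in HC11, and 0.671 and 0.210 RPKM in C57MG. BC44 was 44.4-fold and HC11 25.1-fold above C57MG (log2 differences 3.85 and 3.08, limma adjusted p = 8.91e-07 and 3.23e-06). The 1.77-fold difference between BC44 and HC11 (log2 difference 0.77, SE 0.17, limma adjusted p = 0.00838) was no longer called without BC44 replicate 1 (adjusted p = 0.0706), without HC11 replicate 2 (0.0569) or with a pseudocount of 0.1 (adjusted p = 0.133).

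Cbr3 was at 6.14 and 7.98 RPKM in BC44, 0.506 and 0.358 RPKM in HC11, and 0.047 and 0 RPKM in C57MG. BC44 was 16.3-fold above HC11 (log2 difference 2.49, SE 0.13, limma adjusted p = 9.22e-06) and above C57MG by a log2 difference of 2.97 (limma adjusted p = 9.23e-07). HC11 and C57MG differed by 0.48 (limma adjusted p = 0.0130), a difference no longer called without C57MG replicate 2 (adjusted p = 0.0700), without HC11 replicate 1 (0.0633) or with quantile normalization (0.21, adjusted p = 0.191). In C57MG, Cbr1 stood at 3.43% and 1.07% of its BC44 mean and Cbr3 at 0.666% and 0%, higher in replicate 1 for both, as the epithelial markers were. The part of that trace was not tested. Cbr4, which acts in mitochondrial fatty acid synthesis, averaged 3.27, 4.75 and 2.61 RPKM in BC44, HC11 and C57MG.

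The 3 conjugating genes split between lines. Sult2b1, which sulfates cholesterol and is typical of stratified epithelium, was at 7.06 and 6.89 RPKM in BC44, 15.0 and 12.7 RPKM in HC11, and 0.088 and 0.206 RPKM in C57MG. HC11 was 1.99-fold above BC44 (log2 difference -0.89, SE 0.12, limma adjusted p = 0.000747). Both lines were above C57MG, by log2 differences of 2.80 for BC44 and 3.69 for HC11 (limma adjusted p = 7.16e-07 and 3.26e-07). The C57MG values were 1.26% and 2.95% of the BC44 mean, the lower one in replicate 1, where the epithelial markers were higher.

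The glycosyltransferases Ugt1a6a and Ugt1a6b join glucuronic acid to phenols. Ugt1a6a was at 0.641 and 0.895 RPKM in BC44, 0.554 and 0.564 RPKM in HC11, and 10.4 and 11.6 RPKM in C57MG. C57MG was 14.3-fold above BC44 (log2 difference -2.76, SE 0.11, limma adjusted p = 6.54e-07) and 19.6-fold above HC11 (log2 difference -2.94, limma adjusted p = 6.40e-07). Ugt1a6b was at 0.057 and 0.120 RPKM in BC44, 0.045 and 0 RPKM in HC11, and 1.93 and 2.04 RPKM in C57MG, with log2 differences of -1.46 and -1.55 (limma adjusted p = 5.09e-06 and 4.31e-06).

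Both belong to the Ugt1a locus on chromosome 1, whose genes share their last exons. Their transcripts shared 80.6% and 80.4% of their 50-base windows, and at least 1311 exonic bases of each are common to the other annotated Ugt1a genes. Reads of these genes cannot be told apart over the shared exons, so the values are better read as a level of the Ugt1a locus than of each gene.

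The letters of the promoters were also searched for 2 short cores on both strands, in windows of 300 bases. RefSeq held a promoter for 36 of the 45 genes. The xenobiotic response core GCGTG, which the aryl hydrocarbon receptor binds, was present in 16 of the 36 (44.4%), against 53.1% of the 9074 promoters of genes in the table and 32.5% of all 27025 promoters. It was in the windows of Cyp1b1 and Akr1c14, and not in those of Akr1c12, Akr1c13, Akr1c18 and Ugt1a6a. The antioxidant response core TGACNNNGC was in 2 of 36 (5.56%), Aldh9a1 and Cyp2j6, against 15.1% and 12.5%. A match is a description of letters only.

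The genes that serve these enzymes were taken from 6 lists, which held 7 of 8, 6 of 7, 6 of 6, 6 of 7, 15 of 21 and 11 of 14 of their genes in the table, in the order given next. The median log2 difference between BC44 and C57MG was 0.02 for the electron donors of P450, -0.63 for the makers of sugar and sulfate donors, -0.43 for NADPH supply, -0.70 for the aryl hydrocarbon receptor list, -0.44 for retinoid handling and -0.67 for other reductases and conjugators, beside 0.04 over all genes. Between HC11 and C57MG the same medians were -0.05, -0.61, -0.94, -0.64, -0.54 and -0.39, beside 0.03. Of the 6 medians, 5 were below 0, on the C57MG side, in the first comparison and 6 in the second. The 6 include the -0.05 of the electron donors, of which 2 were called each way. The lists were chosen with earlier results of these data known, and both comparisons use the same C57MG libraries, so these medians are a description only.

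Of 7 genes that pass electrons to P450 enzymes, 4 were called for BC44 against HC11 (2 toward BC44), 5 for BC44 against C57MG (2 toward BC44) and 4 for HC11 against C57MG (2 toward HC11), beside 47.7%, 71.7% and 70.5% of all genes. Por, the main P450 reductase, was at 31.7 and 30.9 RPKM in BC44, 38.0 and 46.9 RPKM in HC11, and 28.9 and 27.4 RPKM in C57MG. It was 1.51-fold higher in HC11 than in C57MG (log2 difference 0.57, limma adjusted p = 0.00215). Cytochrome b5 (Cyb5a) was highest in C57MG, at 89.4 and 86.5 RPKM, against 33.1 and 32.2 in BC44 and 20.7 and 17.2 in HC11. Its reductase gene Cyb5r3 was at 46.4 and 37.5 RPKM in BC44, 84.9 and 63.7 RPKM in HC11, and 167.7 and 147.5 RPKM in C57MG. Fdxr, which passes electrons to mitochondrial P450 enzymes, was at 4.34 and 3.47 RPKM in BC44, 7.21 and 4.45 RPKM in HC11, and 8.34 and 7.35 RPKM in C57MG. Both were higher in each C57MG library than in any other. For Fdxr, the difference from C57MG was called for BC44 (limma adjusted p = 0.00565) but not for HC11 (limma adjusted p = 0.106).

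The reductases use NADPH. The list of its supply held G6pdx, Pgd, Me1 and Idh1, besides Taldo1 and Tkt, which do not make NADPH themselves. Of the 6 genes, 6 were called for HC11 against C57MG and 5 for BC44 against C57MG, each toward C57MG. In that direction 33.2% and 34.1% of all genes were called. The other gene, G6pdx, did not pass against BC44 (limma adjusted p = 0.0655). For BC44 against HC11, 4 were called, 3 of them toward BC44, beside 47.7% of all genes called. Idh1, the cytosolic isocitrate dehydrogenase, was at 13.5 and 15.5 RPKM in BC44, 25.0 and 19.3 RPKM in HC11, and 91.8 and 101.2 RPKM in C57MG (log2 differences of BC44 and HC11 against C57MG -2.65 and -2.08, limma adjusted p = 1.70e-06 and 6.77e-06). The pentose phosphate pathway gene Pgd was at 58.3 and 63.3 RPKM in BC44, 40.2 and 39.3 RPKM in HC11, and 96.3 and 97.6 RPKM in C57MG. G6pdx, which acts just before it, was at 93.4 and 94.6 RPKM in BC44, 61.5 and 50.8 RPKM in HC11, and 111.6 and 109.4 RPKM in C57MG. All 3 genes were highest in both C57MG libraries. HC11, whose summed reductase level was the highest, had the lowest summed level of these 6 genes, 285.8 and 252.9 RPKM, against 328.5 and 336.9 in BC44 and 517.2 and 519.3 in C57MG.

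Of 6 genes that make or move the sugar and sulfate donors, 5 were called between HC11 and C57MG, all 5 higher in C57MG, and 6 between BC44 and C57MG, 5 of them higher in C57MG. Of all genes, 33.2% and 34.1% were called toward C57MG in these comparisons. For BC44 against HC11, 5 were called, 3 of them toward BC44, beside 47.7% of all genes called. Ugdh, which makes the glucuronic acid donor used by Ugt enzymes, was at 12.1 and 12.8 RPKM in BC44, 16.7 and 19.8 RPKM in HC11, and 24.6 and 25.3 RPKM in C57MG. It was 2.00-fold higher in C57MG than in BC44 (log2 difference -0.95, limma adjusted p = 9.54e-05). Papss1, which makes the sulfate donor, was at 17.4 and 17.8 RPKM in BC44, 40.5 and 28.3 RPKM in HC11, and 43.3 and 40.7 RPKM in C57MG. Ugp2, which makes UDP-glucose, was highest in BC44, at 88.8 and 86.4 RPKM, against 42.04 and 38.2 in HC11 and 63.3 and 64.3 in C57MG. Slc35b2, a sulfate donor transporter, was at 35.9 and 34.8 RPKM in BC44, 19.6 and 18.3 RPKM in HC11, and 41.4 and 42.3 RPKM in C57MG. In C57MG, Papss1 was at its highest line mean and Sult2b1 at its lowest.

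In the aryl hydrocarbon receptor list, 6 of 6 tested genes were called between BC44 and C57MG, 5 of them higher in C57MG, and 5 between HC11 and C57MG, 4 of them higher in C57MG, beside 71.7% and 70.5% of all genes called. Toward C57MG, 34.1% and 33.2% of all genes were called in these comparisons. For BC44 against HC11, 3 were called, 2 of them toward BC44, beside 47.7% of all genes called. The receptor gene Ahr was at 4.55 and 5.32 RPKM in BC44, 2.51 and 3.17 RPKM in HC11, and 12.2 and 11.7 RPKM in C57MG. C57MG was 2.42-fold above BC44 (log2 difference -1.13, limma adjusted p = 0.000114) and 4.21-fold above HC11 (log2 difference -1.76, limma adjusted p = 1.18e-05). The line order of Ahr means was that of Aldh3a1, Cyp1b1 and Ugt1a6a, which are known receptor targets. As given above, the Ugt1a6a values are better read as a level of the Ugt1a locus. The step from BC44 to HC11 was called for Ahr and Aldh3a1, but not for Cyp1b1 or Ugt1a6a (limma adjusted p = 0.118 and 0.241). Tiparp, also induced by the receptor, had another order, at 3.98 and 5.19 RPKM in BC44, 7.77 and 19.4 RPKM in HC11, and 11.9 and 13.4 RPKM in C57MG, and its HC11 libraries lay on either side of the C57MG ones. With 3 lines, 6 orders are possible, so a shared order is a description only.

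The quinone reductase Nqo1, another known target, did not have the Ahr order either. It was at 47.8 and 54.5 RPKM in BC44, 1.94 and 1.93 RPKM in HC11, and 0.962 and 0.459 RPKM in C57MG. BC44 was 26.4-fold above HC11 (log2 difference 4.15, limma adjusted p = 2.11e-06) and 72.0-fold above C57MG (log2 difference 4.94, limma adjusted p = 2.86e-07). That is the order of the carbonyl reductases Cbr1 and Cbr3, which also reduce quinones. In C57MG, Nqo1 was low and was higher in replicate 1, as the epithelial markers were. The part of the epithelial trace in these values, and so in the 72.0-fold ratio, was not tested.

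**Figure D5:**
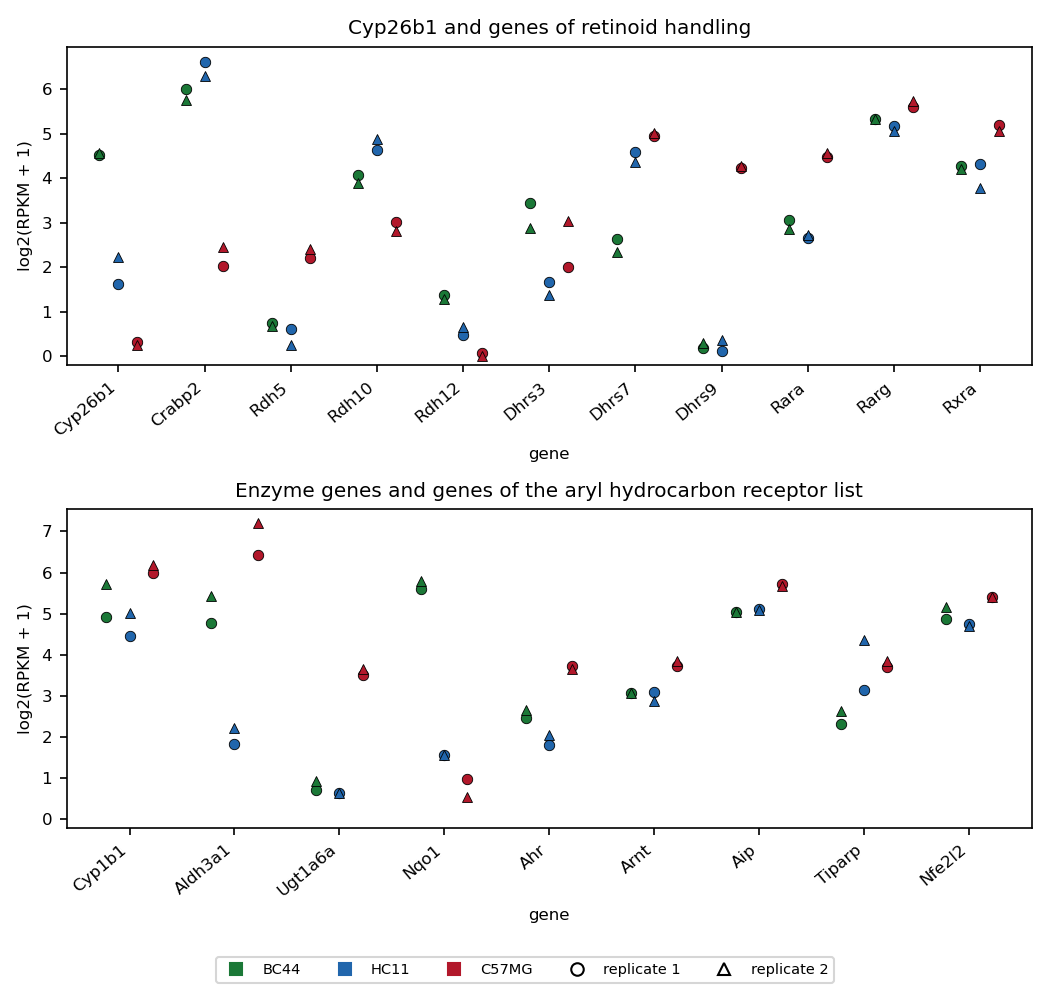
Level, as log2(RPKM + 1), of Cyp26b1 with genes of retinoid handling (upper panel) and of enzyme genes with genes of the aryl hydrocarbon receptor list (lower panel), 1 point per library. Cyp26b1 and Nqo1 are highest in BC44, and Dhrs9, Rara and Ahr in C57MG.

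Around Cyp26b1, 15 genes of retinoid handling were measured. Between BC44 and C57MG 12 were called, 9 of them higher in C57MG. Between HC11 and C57MG 14 were called, 10 of them higher in C57MG, and between BC44 and HC11 6 were called, 4 of them higher in HC11. Of all genes, 71.7%, 70.5% and 47.7% were called in these comparisons, so the last count was not above its background. In the directions named, 34.1%, 33.2% and 23.0% of all genes were called. Crabp2, which carries retinoic acid to its receptors, was at 63.4 and 52.7 RPKM in BC44, 97.2 and 77.3 RPKM in HC11, and 3.10 and 4.51 RPKM in C57MG (log2 differences of BC44 and HC11 against C57MG 3.63 and 4.21, limma adjusted p = 1.28e-06 and 7.84e-07).

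Dhrs9, a short-chain dehydrogenase of retinol and steroids, was instead high in C57MG. It was at 0.128 and 0.228 RPKM in BC44, 0.088 and 0.293 RPKM in HC11, and 17.8 and 18.3 RPKM in C57MG (log2 differences -4.01 and -4.00, limma adjusted p = 2.74e-07 and 2.60e-07). Dhrs7, of the same enzyme family, was at 5.20 and 4.10 RPKM in BC44, 23.1 and 19.7 RPKM in HC11, and 29.6 and 31.5 RPKM in C57MG, so both BC44 libraries were below the other 4. Rdh10, which starts retinoic acid synthesis from retinol, averaged 14.8 RPKM in BC44, 26.0 RPKM in HC11 and 6.61 RPKM in C57MG, and the receptor gene Rara 6.78, 5.49 and 22.1 RPKM.

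Of 11 further reductases and conjugating enzymes, 8 were called in each comparison with C57MG, about the 71.7% and 70.5% of all genes, and 7 of the 8 were higher in C57MG each time. Toward C57MG, 34.1% and 33.2% of all genes were called for BC44 and HC11 against it. For BC44 against HC11 4 were called, beside 47.7% of all genes. Ephx1, the microsomal epoxide hydrolase that opens epoxides made by P450 enzymes, was at 46.1 and 45.2 RPKM in BC44, 2.605 and 2.16 RPKM in HC11, and 228.1 and 249.5 RPKM in C57MG. All 3 lines were apart, with log2 differences of 3.79 between BC44 and HC11, -2.36 between BC44 and C57MG and -6.15 between HC11 and C57MG (limma adjusted p = 5.71e-07, 5.55e-07 and 6.57e-08). Its line order was that of Aldh3a1. Hsd17b11, a short-chain steroid dehydrogenase, was at 0 and 0.018 RPKM in BC44, 5.84 and 6.82 RPKM in HC11, and 4.59 and 3.95 RPKM in C57MG. Nnmt, which methylates nicotinamide, was at 0 and 0.364 RPKM in BC44, 0 and 0.089 RPKM in HC11, and 16.4 and 19.2 RPKM in C57MG.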

How the data were processed

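The files held RPKM values computed by the authors and deposited as 1 table of 11417 genes and 6 libraries, rounded to 3 decimals. STAR and mm9 are named in the submitters' processing notes. The counter, the gene lengths and any use of strand are not given in the sources used here. Depth was estimated from low values: multiplied by gene length, 77.6% to 83.9% lay within 0.15 of a whole number of reads, against 30% by chance. Floors drawn from them cover counting error only.

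The test was limma's moderated linear model with a trend (limma 3.58.1 in R 4.3.3) on log2(RPKM + 1), all 6 libraries sharing 1 estimate of the spread. Two-sided p-values were adjusted by Benjamini-Hochberg over the 10759 genes tested in each comparison. The script was tested on simulated data.

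Members came from the name rule, classes from gene families. Per-library values are given for the 4 largest called, non-overlapping differences of each class and comparison and for the 2 most abundant genes of each family (22 genes), and for the 3 partner genes of each list with the largest difference, with Por and Ugdh besides. The members and lists were chosen with earlier results of these data known. All 11417 identifiers matched GENCODE M21 (GRCm38), used for names, exon overlap and gene order. Promoters came from RefSeq (GRCm38.p6). Alternatives were another pseudocount, 2 other filters, 2 normalizations, no trend, a block for the replicate number and single libraries left out.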

Additional observations from a re-analysis of the deposited data

How the results depend on the processing

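Direction was kept for all 50 called differences of the 22 genes given by library, and 44 stayed called under each of the 13 alternatives that gave a value. The other 6 were Cbr1 between BC44 and HC11, Adh5 in both comparisons with C57MG, Cyp1b1 and Cyp20a1 between BC44 and C57MG, and Cbr3 between HC11 and C57MG. Of 52 called differences of partner genes, 43 stayed called. Requiring a mean of at least 5 RPKM left 23 members to test, and 11, 19 and 21 were called between BC44 and HC11, BC44 and C57MG, and HC11 and C57MG, against 21, 33 and 35. Without any filter the counts were 25, 36 and 38 of 45. The share of all genes called is not given for any alternative, so these counts describe the members only. Leaving out single libraries gave 16 to 21, 30 to 34 and 28 to 34 members, with the lone library left of a line assumed to vary like the others. Tiparp, not called between HC11 and C57MG at -0.03, was at 0.58 without HC11 replicate 1 and at -0.64 without HC11 replicate 2. A pseudocount of 0.1 enlarged the log2 differences of genes near 0, such as Akr1c18 between BC44 and HC11 (-6.97 against -4.02). A replicate block in the model gave 23, 33 and 34 called members. Same-numbered libraries' deviations correlated across genes at 0.354 for BC44 against HC11, and at -0.039 and 0.038 for BC44 and HC11 against C57MG. Whether same-numbered BC44 and HC11 libraries shared a factor was not tested. The numbers were not taken to pair the libraries, since the labels do not say that a number marks a shared day or batch. With 2 libraries per line, precision at low levels is limited by a few reads.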
